A study of Mus musculus with 95 samples.

Results

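The genes described here are the 82 protein-coding genes that start between 70 and 74 Mb of mouse chromosome 8 and average at least 1 CPM over all 95 libraries of the series. CPM, the usual measure of counts scaled to library size, is a gene's count relative to the total count of its library, on a fixed scale. Positions follow the GENCODE M21 annotation of the GRCm38 genome. The 82 are among 107 protein-coding genes that start in this stretch. Another 24 fell under 1 CPM, and Bst2, an interferon-induced membrane protein, was set aside by the rule. Of 55471 features in the counts, 13188 were protein-coding genes that reached 1 CPM. The stretch was picked because of how its genes differed between non-naive and naive mice in these same libraries, so values of that difference are given as a description. No p is given for it, and where members are called on it, the threshold only marks which ones are named. Just above the CPM limit were the kinase gene Jak3 at a mean of 1.28 CPM, Ushbp1 at 1.91 CPM and Fam129c at 2.07 CPM. Just below it were Nxnl1 at 0.883 CPM, the cytokine receptor gene Il12rb1 at 0.615 CPM and the transcription factor gene Mef2b at 0.610 CPM. The first member along the chromosome was Mau2, a cohesin-loading factor that starts at base 70016123.

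All mice carried the transgene Tg(Aldh1l1-EGFP/Rpl10a)JD130Htz, labelled as on a B6;FVB background, in which the regulatory region of Aldh1l1, an astrocyte gene, drives a fluorescently tagged ribosomal protein. Ages are not given in the sources used here. Tagged ribosomes were purified from punches of the nucleus accumbens, a reward region of the forebrain, to give the IP library of a mouse, and unpurified material of the same punches made up the input library. Dependent mice had gone through CIE-2BC, in which repeated chronic intermittent ethanol exposure is combined with voluntary drinking from 2 bottles, and non-dependent mice had the 2BC drinking alone. Naive mice had no ethanol. Non-naive mice here are the dependent and non-dependent mice together. There were 18 dependent, 13 non-dependent and 15 naive IP libraries, and 18, 15 and 16 input libraries in the same order, of both sexes. The libraries came from 49 mice, of which 46 had both fractions and 3 the input only, in 6 batches. Batch here is the letter that opens the mouse ID, and the sample titles do not say what that letter stands for. Naive mice were present in batches J, K and L only, and batch L held no non-dependent mouse.

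Library totals lay between 14314236 and 27146790 counts for the IP and between 12803108 and 23948193 counts for the input. As a check of the fractions, all 12 astrocyte markers were higher in the IP than in the input, with a median log2 fold change of 3.13, and all 10 neuron markers were lower, with a median of -1.27. Between non-naive and naive mice, 2 of the 12 astrocyte markers were higher in each fraction, and none of the 10 markers each of neurons, medium spiny neurons, oligodendrocytes and microglia or of the 8 endothelial markers passed in either. Of 5 erythroid genes 1, the alpha-globin gene Hba-a2, was lower in each fraction. It had a median of 0.0529 CPM in 31 non-naive IP libraries, with a highest value of 0.354 CPM, against a median of 16.0037 CPM and a highest value of 39.9 CPM in 15 naive ones, and a median of 0.226 CPM in non-naive against 45.4 CPM in naive input libraries. The ranges overlapped, since 1 naive IP library had 0 CPM. In the input the lowest naive value was 0.0485 CPM and the highest non-naive value 0.713 CPM. The fitted log2 fold changes, -6.78 in the IP and -7.32 in the input, were larger in size than that of any member. Hba-a2 is a near-identical copy of Hba-a1, which was not called in either fraction, so the split of reads between the copies is uncertain. Summed astrocyte markers had a median of 27235 CPM in non-naive and 28282 CPM in naive IP libraries, and of 3885 CPM in non-naive and 3600 CPM in naive input libraries. Summed medium spiny neuron markers had medians of 3082 CPM in non-naive and 3534 CPM in naive IP libraries. In the input these were 8451 and 9781 CPM. The neuron markers ran the other way, with medians of 1707 and 1575 CPM in the IP and 4511 and 4127 CPM in the input. The part of cell composition in the differences below was not tested, and in such bulk libraries fewer cells of a type and less RNA per cell cannot be told apart.

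The stretch is among the gene-dense parts of the mouse genome and its members share a place rather than a pathway. They include the helicase of nonsense-mediated mRNA decay, ribosomal and spliceosomal proteins, synaptic vesicle regulators, proteins of the perineuronal matrix, a fatty acid transporter and a run of zinc-finger genes. Some of the genes are known as astrocyte genes, and others as neuronal genes or genes of blood vessels.

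Between non-naive and naive mice, 3 members passed the threshold in both fractions, which is an adjusted p at or under 0.05 over all genes tested. These were Upf1, Ocel1 and Fam32a. Upf1 encodes the RNA helicase at the centre of nonsense-mediated decay, Ocel1 a protein with the occludin and ELL domain, and Fam32a a protein known from the human spliceosome. Upf1 lies on the minus strand at chr8:70331525-70353278, Ocel1 on the plus strand at chr8:71371298-71379361 and Fam32a on the plus strand at chr8:72219730-72224418. Their promoter sequences are shown because these are the members called in both fractions. Each holds the 235 bases from 250 to 16 before the RefSeq start of the gene (GRCm38.p6), read 5′ to 3′ along the gene. Capitals mark matches, on either strand, to the GC box GGGCGG, the CCAAT box CCAAT or the ETS core CGGAAGT.
Upf1, chr8:70353295-70353529, minus strand: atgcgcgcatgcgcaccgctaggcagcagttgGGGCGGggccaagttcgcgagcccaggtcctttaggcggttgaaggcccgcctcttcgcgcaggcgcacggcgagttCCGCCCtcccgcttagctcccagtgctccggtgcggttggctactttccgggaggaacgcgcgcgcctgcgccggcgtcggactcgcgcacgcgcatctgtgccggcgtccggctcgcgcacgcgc
Ocel1, chr8:71371048-71371282, plus strand: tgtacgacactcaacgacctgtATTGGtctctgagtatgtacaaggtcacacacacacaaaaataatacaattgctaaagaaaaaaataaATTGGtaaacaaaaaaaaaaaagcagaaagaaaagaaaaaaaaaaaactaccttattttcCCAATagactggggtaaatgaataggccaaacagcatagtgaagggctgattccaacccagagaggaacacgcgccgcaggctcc
Fam32a, chr8:72219495-72219729, plus strand: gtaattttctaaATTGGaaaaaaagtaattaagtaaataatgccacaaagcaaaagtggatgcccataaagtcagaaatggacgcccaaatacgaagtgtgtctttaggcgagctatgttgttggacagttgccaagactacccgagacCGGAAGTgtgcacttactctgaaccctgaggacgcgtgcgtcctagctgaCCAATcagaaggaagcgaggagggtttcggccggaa
The Upf1 promoter had a GC content of 72.3% and 2 GC boxes. That of Ocel1 had a GC content of 37.9% and 3 CCAAT boxes, and that of Fam32a a GC content of 46.0%, 2 CCAAT boxes and 1 ETS core. The median GC content of 32851 promoters of the same length was 51.9%. A GC box was present in 30.6% of these promoters, a CCAAT box in 32.6% and the ETS core in 4.13%, while the TATA box TATAAA, found in 11.9%, was in none of the 3. Promoters were on hand for 69 of the 82 members.

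Fam32a had 201, 285 and 349 CPM as the lowest, median and highest level in the IP of dependent mice, 163, 274 and 317 CPM in non-dependent mice, and 72.6, 181 and 203 CPM in naive mice. In the input it had 151, 290 and 336 CPM in dependent mice, 138, 287 and 326 CPM in non-dependent mice, and 105, 199 and 244 CPM in naive mice. The ranges overlapped, but 28 of 31 non-naive IP libraries lay above every naive one, and 24 of 33 non-naive input libraries did so. The non-naive IP libraries that reached into the naive range were those of mice I02, J04 and J11, and in the input J04 and J10 were the lowest non-naive mice. The log2 fold change, non-naive over naive with batch as a term, was 0.70 ± 0.10 (SE) in the IP and 0.56 ± 0.08 in the input.

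For Ocel1, the lowest, median and highest IP levels were 15.5, 23.4 and 33.3 CPM in dependent mice, 14.8, 23.1 and 31.9 CPM in non-dependent mice, and 6.83, 14.5 and 20.8 CPM in naive mice. Input levels were 23.03, 41.8 and 67.9 CPM in dependent mice, 26.2, 39.0 and 72.7 CPM in non-dependent mice, and 9.21, 25.4 and 42.9 CPM in naive mice. Of the non-naive libraries, 21 of 31 in the IP and 13 of 33 in the input lay above every naive library, and the rest, mostly of batch I, which holds no naive mouse, shared the range of the naive mice. The log2 fold change was 0.84 ± 0.13 in the IP and 0.88 ± 0.17 in the input, and in batches J and K alone the input value was 1.03 and not called. Exons of Ocel1 overlap those of Nr2f6, a nuclear receptor gene on the opposite strand, over gene models that share 5239 bases. Nr2f6 itself had a log2 fold change of 0.29 ± 0.15 in the IP and 0.08 ± 0.11 in the input and was called in neither fraction. The use of strand in counting is not given in the sources used here, so reads in the shared bases cannot be assigned to either gene with certainty.

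Upf1 differed in the other direction. Its lowest, median and highest IP levels were 7.92, 12.2 and 21.5 CPM in dependent mice, 6.36, 14.7 and 23.8 CPM in non-dependent mice, and 11.6, 18.9 and 28.1 CPM in naive mice. In the input they were 4.64, 13.5 and 28.6 CPM in dependent mice, 6.99, 14.3 and 22.3 CPM in non-dependent mice, and 9.54, 15.8 and 30.4 CPM in naive mice. The groups overlapped widely, and 12 of 31 non-naive IP libraries and 10 of 33 non-naive input libraries lay below every naive library. The log2 fold change was -0.61 ± 0.14 in the IP and -0.57 ± 0.11 in the input. With no batch term and batches C and G included, a change of both the model and the mice, it was -0.44 in the IP, still called, and -0.30 in the input, not called. In batches J and K alone it was -0.65 in the IP and -0.60 in the input, neither called. The gene model of Upf1 shares 68 bases with that of Cers1, its neighbour on the opposite strand, and has exon bases in common with the growth factor gene Gdf1 on that strand.

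**Figure D1:**
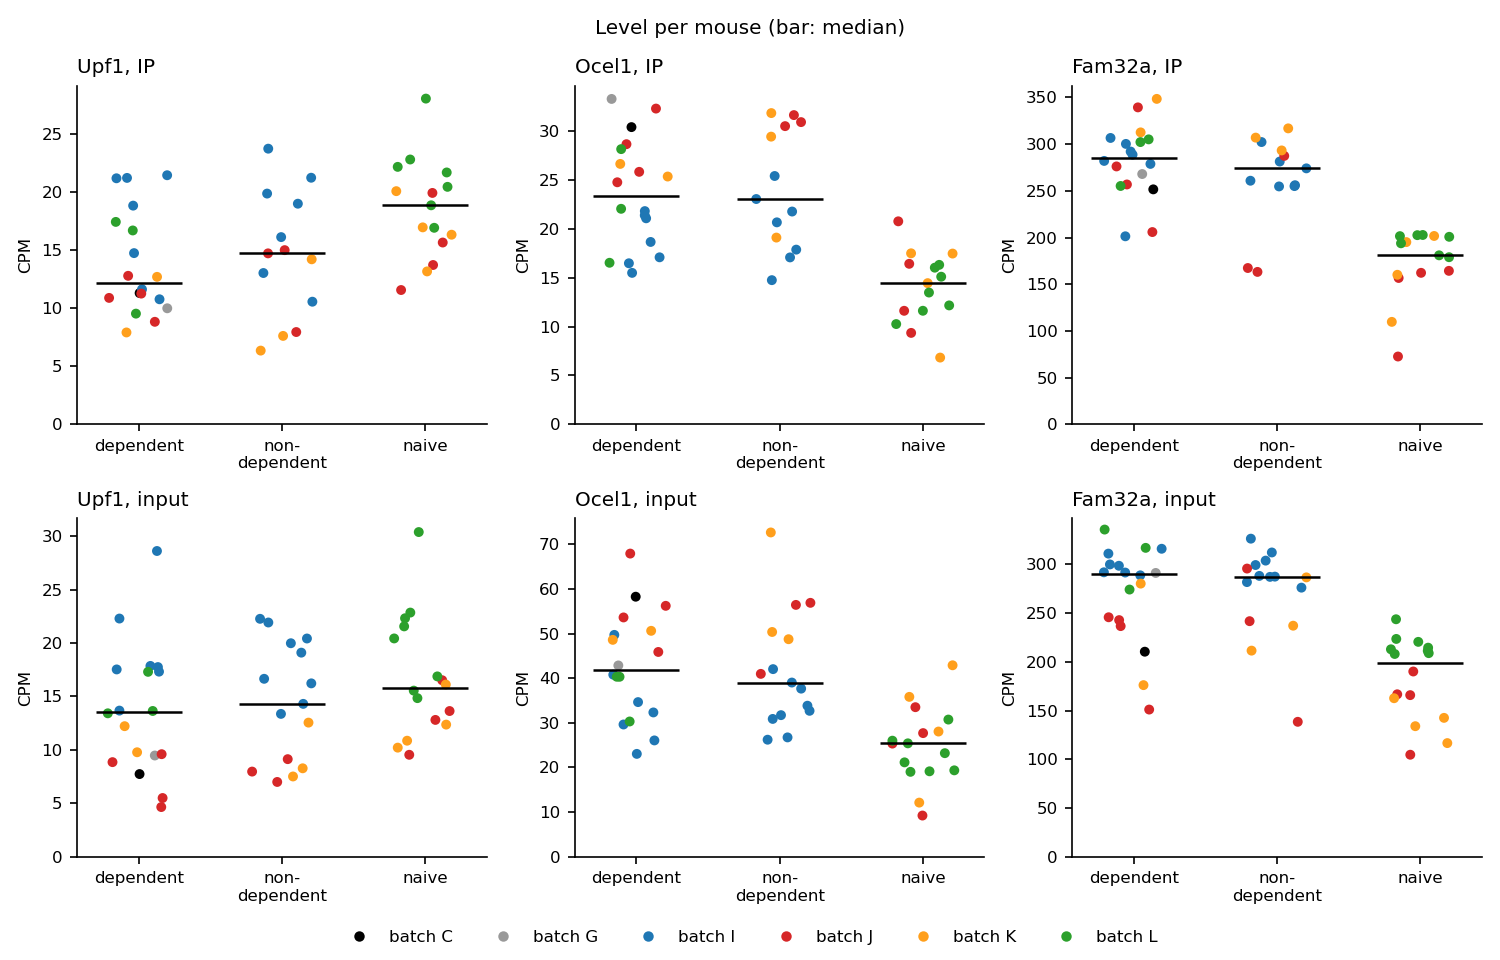
Level in CPM (vertical axis, from 0) of Upf1, Ocel1 and Fam32a in each mouse by treatment, IP above and input below, with batches by colour and the median of each treatment as a bar. Fam32a and Ocel1 sit higher in dependent and non-dependent mice than in naive mice, with 2 naive mice at the bottom of the Fam32a panels, and Upf1 sits lower with wide overlap.

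Within each batch that holds naive mice, the 3 genes, picked on the pooled values of these same mice, had the direction of the pooled difference in both fractions. In batch J, Ocel1 had 24.8 to 32.3 CPM in the IP of 7 non-naive mice, against 9.36 to 20.8 CPM in 4 naive mice. In batch K it had 19.1 to 31.9 CPM in 5 non-naive mice, against 6.83 to 17.5 CPM in 4 naive mice. In batch L it had 16.5 to 28.2 CPM in 3 non-naive mice, against 10.3 to 16.3 CPM in 7 naive mice. The non-naive and naive ranges of Ocel1 were therefore separate in all 3 batches in the IP, and they were separate in batches J and K in the input. Those of Fam32a were separate in batches K and L in both fractions, and those of Upf1 overlapped in every batch and fraction. Other called members, such as Lsm4 and Pgpep1 in the IP of batch K, also had separate ranges. The share of all genes with separate ranges in such small groups was not computed, so nothing is read from this separation.

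Naive mice J08 and K20 had the lowest Fam32a of all mice, with 72.6 and 110 CPM in the IP and 105 and 117 CPM in the input. The same 2 mice had the lowest Ocel1, at 9.36 and 6.83 CPM in the IP and 9.21 and 12.1 CPM in the input. The genotype of these or other mice in this stretch was not analysed here. Without J08 and K20, a setting added after the data were seen, the log2 fold change of Fam32a was 0.55 in the IP and 0.45 in the input, and that of Ocel1 was 0.69 in the IP and 0.66 in the input, with all 4 still called. Upf1 was then at -0.55 in the IP, where it was no longer called, and at -0.50 in the input, where it was.

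In the IP, 11 of the 82 members were called between non-naive and naive mice, 5 higher and 6 lower, which is 13.4% of the members beside 2.1% of all 20580 genes tested (1.24% higher and 0.865% lower) and 2.9% of the 13188 protein-coding genes of at least 1 CPM. In the input 7 members were called, 3 higher and 4 lower, or 8.54% beside 0.794% of 20897 genes tested (0.469% higher and 0.325% lower) and 1.05% of those protein-coding genes. Because the stretch was chosen on this contrast, nothing is read from these shares. The median log2 fold change over the members was -0.02 in the IP and 0.01 in the input, and the median over the protein-coding genes was 0.01 in the IP and 0.00198 in the input. No member had separate ranges of non-naive and naive mice over all batches. The 15 members called in either fraction had the same sign in both for 14, the exception being Tmem38a.

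**Figure D2:**
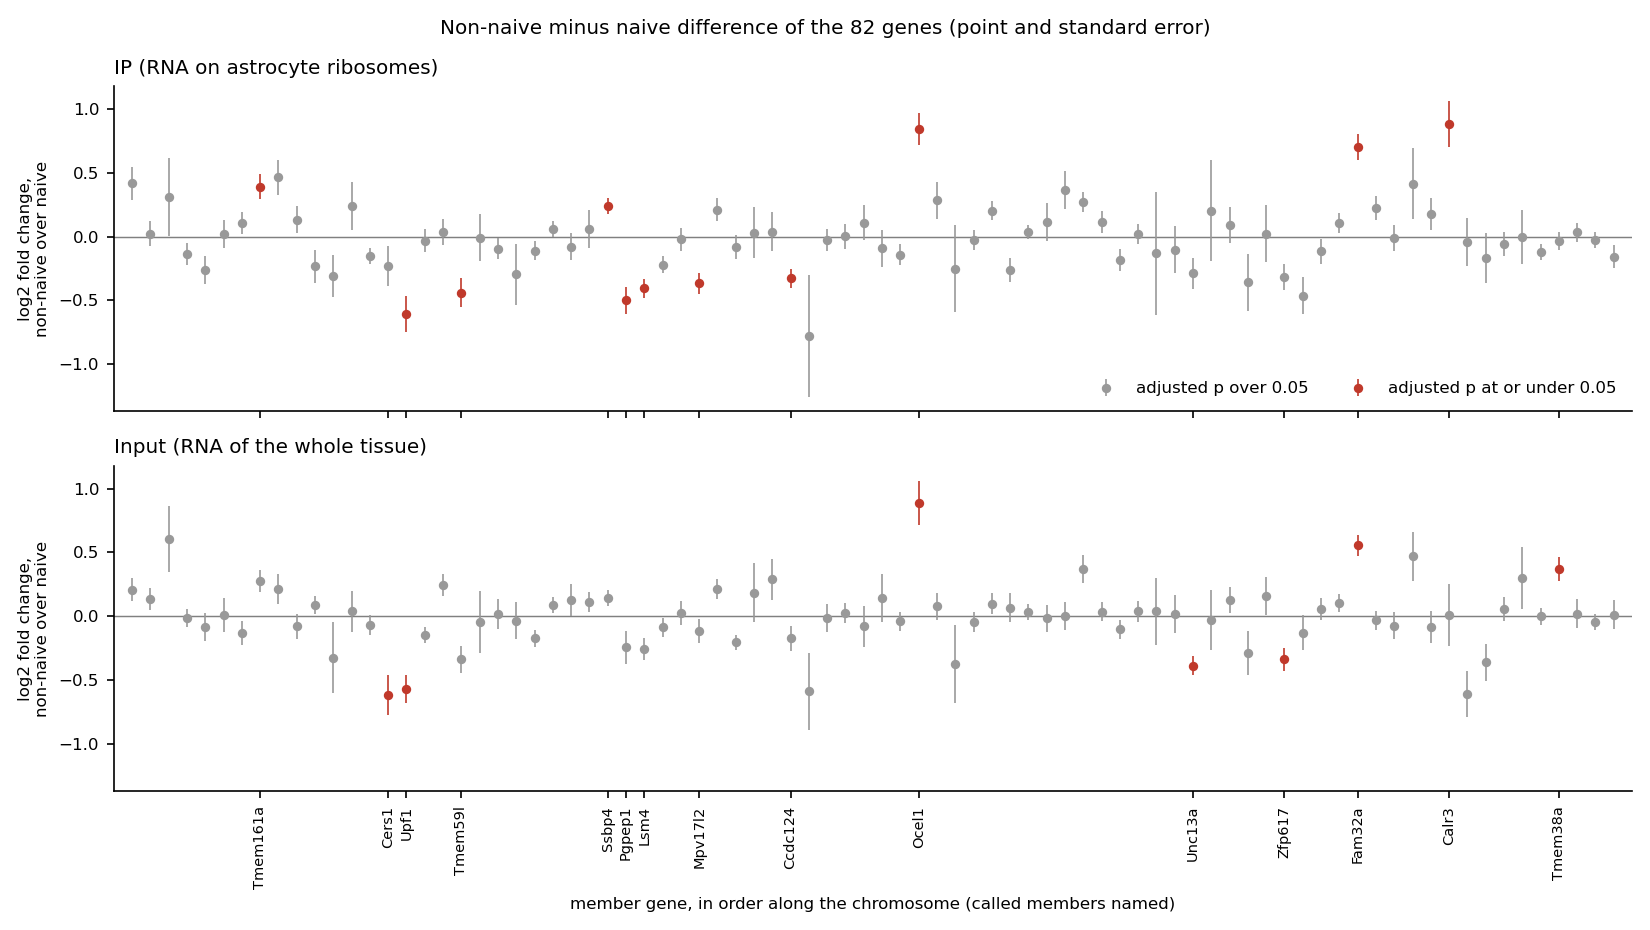
Log2 fold change, non-naive over naive, with its standard error (vertical axis) for the 82 members in their order along the chromosome (horizontal axis), IP above and input below. Red points passed an adjusted p of 0.05, and members called in either fraction are named on the axis. The called members, 11 in the IP and 7 in the input, point in both directions. In the IP, 8 of them are among the first 40 members, from 70 to 71 Mb, with 2 of these higher. The IP calls beyond 71 Mb are all higher. Over all genes tested 2.1% were called in the IP and 0.794% in the input, and nothing is read from these positions.

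Called in the IP alone were 8 members. Calr3, a testis-type relative of the endoplasmic reticulum chaperone calreticulin, had 1.68, 6.96 and 11.4 CPM as lowest, median and highest level in non-naive IP libraries, against 1.09, 3.52 and 4.97 CPM in naive ones. Its log2 fold change was 0.88 ± 0.18 in the IP and 0.01 ± 0.24 in the input. The other higher ones were Tmem161a, a membrane protein, at 0.39 ± 0.10, and Ssbp4, of a single-stranded DNA-binding family, at 0.24 ± 0.06. Lower were Pgpep1, a peptidase that removes pyroglutamate, at -0.50 ± 0.11, and Tmem59l, a membrane glycoprotein of neurons, at -0.44 ± 0.11. Lsm4, a subunit of the Lsm ring that binds RNA, was at -0.41 ± 0.08, Mpv17l2, which acts in mitochondrial ribosome assembly, at -0.37 ± 0.08, and Ccdc124, a ribosome-associated protein, at -0.33 ± 0.07. Lsm4, for example, had 45.5, 71.9 and 112 CPM as lowest, median and highest level in non-naive IP libraries, against 76.1, 109 and 139 CPM in naive ones, so that the ranges overlapped in part. Mpv17l2 shares exon bases with Rab3a on the opposite strand.

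Called in the input alone were 4 members. Cers1, a ceramide synthase of neurons, was at -0.61 ± 0.16 on the log2 scale, Unc13a, which primes synaptic vesicles for release, at -0.39 ± 0.07, the zinc-finger gene Zfp617 at -0.34 ± 0.09, and Tmem38a, a cation channel of internal membranes, at 0.37 ± 0.09. In the IP the same genes stood at -0.23 ± 0.16, -0.29 ± 0.12, -0.32 ± 0.10 and -0.03 ± 0.07. Cers1 varied far more between batches than between groups, with mean input levels of 2.68 CPM in non-naive and 5.40 CPM in naive mice of batch J, but 17.8 CPM in non-naive and 21.8 CPM in naive mice of batch L. With no batch term and batches C and G included, the input value of Cers1 was -0.17 and not called. Without naive mice J08 and K20, 7 members were called in the IP and 4 in the input. The losses were Upf1, Tmem59l at -0.38, Tmem161a at 0.34 and Ssbp4 at 0.22 in the IP, and Cers1 at -0.41, Zfp617 at -0.24 and Tmem38a at 0.40 in the input.

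**Figure D3:**
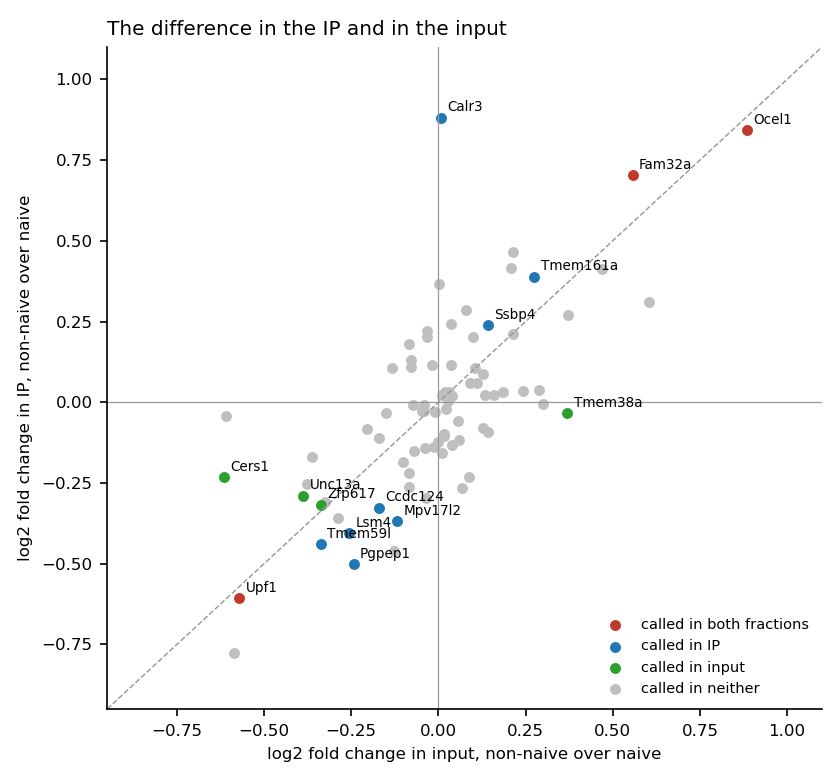
Log2 fold change, non-naive over naive, in the IP (vertical axis) against the input (horizontal axis) for each of the 82 members, with the line of equal change dashed. Upf1, Ocel1 and Fam32a, called in both fractions, lie near that line, and Calr3, at 0.88 in the IP and 0.01 in the input, lies far from it.

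The difference between the fractions in the non-naive minus naive change was fitted over the 44 mice of batches I to L that had both fractions, the mouse being a block in the fit. None of the 82 members was called by edgeR's quasi-likelihood test, beside 0.0627% of 23939 genes tested. An unadjusted p under 0.05 was found for 8 members, or 9.76%, beside 5.84% of all genes tested, and nothing is read from that count. The difference between the log2 fold changes, IP minus input, was -0.39 ± 0.10 for Tmem38a and 0.77 ± 0.29 for Calr3. For Upf1, Ocel1 and Fam32a it was -0.08 ± 0.17, -0.06 ± 0.13 and 0.14 ± 0.08.

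Set beside naive mice separately, dependent mice had 14 called members in the IP, beside 4.49% of all genes, and 11 in the input, beside 2.16%. Non-dependent mice had 4 in the IP, beside 0.428% of all genes, and 3 in the input, beside 0.12%. These counts depended on the fit. The non-dependent IP count was 9 by DESeq2 and 9 with no count filter, and in batches J and K alone the dependent counts were 3 in the IP and 0 in the input and the non-dependent counts 1 in the IP and 0 in the input. With no batch term and batches C and G included, the dependent input count was 4. These comparisons share the naive mice. On the log2 scale, over naive mice, Ocel1 was at 0.81 ± 0.13 in dependent and 0.87 ± 0.15 in non-dependent IP libraries, and at 0.88 ± 0.18 in dependent and 0.89 ± 0.20 in non-dependent input libraries. Fam32a was at 0.77 ± 0.11 in dependent and 0.64 ± 0.12 in non-dependent IP libraries, and Upf1 at -0.63 ± 0.15 in dependent and -0.59 ± 0.17 in non-dependent IP libraries. The non-dependent minus naive difference of Upf1 was called in the input and not in the IP.

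Dependent and non-dependent mice were then compared with each other, a contrast that does not use the naive mice. In the IP 1 of the 82 members passed, beside 1.53% of all 20580 genes and 2.76% of the 615 other protein-coding genes of chromosome 8 with at least 1 CPM. An unadjusted p under 0.05 was reached by 14 members, or 17.1%, beside 11.9% of all genes tested. The called gene was Fcho1, which encodes a protein of early clathrin-coated pits. It had 5.49, 11.8 and 28.9 CPM as lowest, median and highest IP level in dependent mice, against 9.23, 19.2 and 25.8 CPM in non-dependent mice. The ranges overlapped over most of their length. Fcho1 was lower in dependent mice by a log2 fold change of -0.51 ± 0.14, with an adjusted p of 0.0411 by edgeR's quasi-likelihood test. Mean IP levels were 18.2 CPM in dependent and 21.6 CPM in non-dependent mice of batch I, 7.36 CPM in dependent and 13.4 CPM in non-dependent mice of batch J, and 9.79 CPM in dependent and 14.1 CPM in non-dependent mice of batch K. The call was lost with no batch term and the dependent mice of batches C and G included, where the difference was -0.43, and in batches J and K alone, where it was -0.58.

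Fcho1 was itself lower in the IP than in the input, where it was not called between dependent and non-dependent mice. Mean input levels were 54.7 CPM in dependent and 53.3 CPM in non-dependent mice of batch I. In batch J they were 17.4 and 24.4 CPM in the same order, and in batch K 25.2 and 24.1 CPM. In the same contrast of dependent with non-dependent IP libraries, 3 of 10 microglia markers were higher, and 1 of 10 neuron markers and 1 of 10 medium spiny neuron markers were lower. Called or not, all 10 neuron and all 10 medium spiny neuron markers had log2 fold changes below 0, with medians of -0.14 and -0.28. The median of the microglia markers was 0.39. Summed microglia markers had a median of 249 CPM in dependent mice, with a range from 176 to 744 CPM, against a median of 223 CPM in non-dependent mice, with a range from 188 to 272 CPM. The part of microglia or neurons in the Fcho1 difference was not tested.

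In the input none of the 82 members passed between dependent and non-dependent mice by edgeR, beside 0.378% of 20897 genes, and DESeq2 called none. There 4 members, or 4.88%, had an unadjusted p under 0.05, beside 6.8% of all genes tested. The log2 fold change, dependent over non-dependent, was -0.04 ± 0.14 for Upf1, -0.06 ± 0.12 for Ocel1 and 0.12 ± 0.10 for Fam32a in the IP, and 0.04 ± 0.11, -0.0025 ± 0.16 and -0.03 ± 0.08 in the input. Each was smaller than 1.5 standard errors in size.

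Between females and males, none of the 82 members passed by edgeR in the IP, beside 0.0486% of all genes, or in the input, beside 0.0526%. An unadjusted p under 0.05 was seen for 3 members in the IP, or 3.66% beside 5.45% of all genes. In the input it was seen for 4, or 4.88% beside 5.12%. DESeq2 called none in either fraction.

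Between IP and input of the same mouse, 71 of the 82 members passed, 32 higher and 39 lower in the IP, beside 73.1% of 24033 genes tested (31.8% higher and 41.3% lower) and 84.2% of the 615 other protein-coding genes of the chromosome. The median log2 fold change was -0.05 over the members and -0.000717 over the 13188 protein-coding genes. With the RLE scaling all genes shifted by -0.08 and 68 members passed, 27 of them higher.

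Highest in the IP were Nwd1, Slc27a1, Ncan and Homer3. Nwd1, a protein with NACHT and WD repeat domains, had 119, 146 and 183 CPM as lowest, median and highest level in the IP libraries, against 11.4, 19.02 and 27.7 CPM in the input libraries, with no overlap. Slc27a1, the fatty acid transporter FATP1, had 170, 292 and 586 CPM in the IP, against 23.7, 59.2 and 96.6 CPM in the input, also without overlap. Ncan, the matrix proteoglycan neurocan, had 241, 393 and 537 CPM in the IP, against 58.1, 90.7 and 113 CPM in the input, and its ranges were separate as well. Homer3, a scaffold protein known from postsynaptic sites, had 3.11, 5.98 and 12.95 CPM in the IP, against 0.391, 1.74 and 3.67 CPM in the input, so that its ranges overlapped. Homer3 shares exon bases with Ddx49 on the opposite strand. Log2 fold changes were 3.15 ± 0.05 for Nwd1, 2.82 ± 0.04 for Slc27a1, 2.33 ± 0.03 for Ncan and 2.05 ± 0.10 for Homer3, with edgeR adjusted p-values of 2.14e-53, 2.06e-56, 1.11e-54 and 3.76e-27.

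Lowest in the IP were Slc5a5, the sodium iodide symporter, at -1.80 ± 0.12, Tmem59l at -1.52 ± 0.05, the link protein gene Hapln4 at -1.28 ± 0.09 and Rab3a, a GTPase of synaptic vesicles, at -1.14 ± 0.04. Rab3a had 122, 258 and 334 CPM as lowest, median and highest level in the IP, against 298, 680 and 963 CPM in the input. Tmem59l had 27.1, 61.0 and 103 CPM in the IP, against 83.2, 217 and 381 CPM in the input. In both genes the top of the IP range reached into the bottom of the input range.

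**Figure D4:**
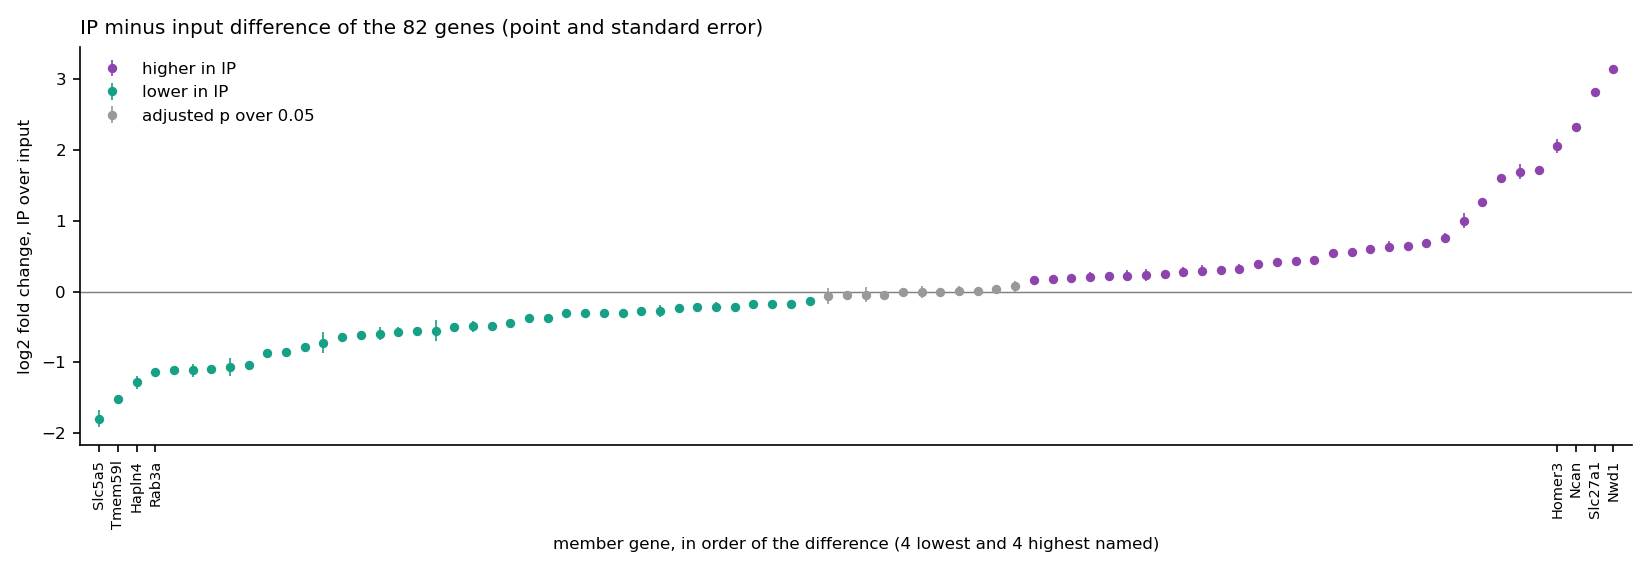
Log2 fold change, IP over input, with its standard error (vertical axis) for the 82 members ordered by it (horizontal axis), with the 4 lowest and 4 highest named. Members run from -1.80 (Slc5a5) to 3.15 (Nwd1), with 32 called higher in the IP, 39 called lower and 11 not called.

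Of the 13188 protein-coding genes of at least 1 CPM, 43.1% were called higher in the IP than in the input and 42.6% lower. These shares stand beside each IP over input count of the role lists below. By role, with Mpv17l2, Gtpbp3 and Mrpl34 counted under both mitochondria and translation, 6 of 8 members with mitochondrial or lipid functions were higher in the IP and 2 were lower, with a median log2 fold change of 0.62. The higher ones included Mpv17l2 at 1.61, Cers1 at 0.76 and the pentose phosphate enzyme gene Pgls at 0.65, and the inositol synthase gene Isyna1 was lower at -1.12. None of the 8 was called higher between non-naive and naive mice, and 1 was called lower in each fraction, Mpv17l2 in the IP and Cers1 in the input, beside 0.865% of all genes called lower in the IP and 0.325% in the input.
Of 9 members of synapse, excitability and matrix, 4 were higher and 5 lower in the IP. Besides Ncan and Homer3, which were higher, and Rab3a, which was lower, Unc13a stood at -0.87. Between non-naive and naive mice none of the 9 was called in the IP and 1, Unc13a, was lower in the input, beside the same 0.325% of all genes.
Of 11 members of RNA processing and translation, 3 were higher, 5 lower and 3 not called in the IP over the input. Sugp2, a splicing-related protein with a G-patch, was at -0.50 and Lsm4 at -0.38. Between non-naive and naive mice 3 of these 11 were lower in the IP, namely Upf1, Lsm4 and Mpv17l2, and Upf1 alone was lower in the input, beside the same shares of 0.865% and 0.325% of all genes. This list leaves out Fam32a and Ccdc124, described above as spliceosomal and ribosome-associated. Fam32a was called higher in both fractions and Ccdc124 lower in the IP, so the direction seen here depends on the choice of list.

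Among 11 members that act in transcription and chromatin, 4 were higher and 6 lower in the IP over the input. Rfxank, a subunit of the RFX complex that drives MHC class II genes, was at 1.26 and Crtc1, a CREB coactivator, at -0.86. Sin3b, a scaffold of corepressor complexes, was at 0.56. Of 11 members of vesicle and membrane traffic, 3 were higher and 3 lower, among them Mvb12a, an ESCRT-I subunit, at 0.54, the small GTPase gene Rab8a at 0.43 and Fcho1 at -1.10. Of 7 members of signalling and immunity, 1 was higher and 5 were lower, among them the arrestin-domain gene Arrdc2 at 0.63, the kinase gene Mast3 at -1.03 and Plvap, a protein of endothelial diaphragms, at -0.78. No vesicle or signalling member was called between non-naive and naive mice in either fraction, and Ssbp4 in the IP was the only transcription member that was, beside 1.24% of all genes called higher there. The lists lie in the stretch chosen on this contrast, and nothing is read from their counts.

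Along the chromosome, Ssbp4, Pgpep1 and Lsm4 are consecutive members and were all called in the IP, the first higher and the others lower, and the adjacent Cers1 and Upf1 were both called lower in the input. The gene models of Cers1 and Upf1 share 68 bases, and Cers1 has exon bases in common with Gdf1 on its own strand. The input call of Cers1 stayed in 3 of 7 other settings. Within 0.3 Mb of Ocel1 lie 18 other members, of which none was called between non-naive and naive mice in the IP and 1, Unc13a, in the input. Their log2 fold changes ran from -0.29 to 0.36 in the IP. Within 0.3 Mb of Fam32a lie 12 members, of which 1, Calr3, was called in the IP and none in the input. Within 0.3 Mb of Upf1 lie 25 members, of which 3 were called in the IP and 1 in the input. By 1 Mb steps, 8 of 40 members that start from 70 to 71 Mb were called in the IP, 1 of 25 from 71 to 72 Mb and 2 of 17 from 72 to 73 Mb. In the input 2, 3 and 2 members were called in the same steps. Over all genes tested, 2.1% were called in the IP and 0.794% in the input. Because the stretch was chosen on this contrast, nothing is read from where its calls lie.

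Elsewhere on chromosome 8, 26 of 615 protein-coding genes of at least 1 CPM were called between non-naive and naive mice in the IP, or 4.23%, and 17 in the input, or 2.76%. The rest of the chromosome was divided into 31 intervals of 4 Mb, of which 23 held at least 10 such genes. Of these 23, 1 had a higher share called than the members in the IP, the one from 94 to 98 Mb with 5 of 37 genes. In the input 3 did, namely those from 30 to 34 Mb with 2 of 14 genes, from 66 to 70 Mb with 3 of 26 and from 90 to 94 Mb with 1 of 11. No gene was called in 15 of the 31 intervals in the IP and in 22 in the input. The members' median size of the log2 fold change, sign aside, was 0.146 in the IP and 0.108 in the input, and 5 of the 23 intervals in the IP and 12 in the input had a larger one. With 82 genes, the stretch was also the fullest interval, the next holding 65. Since it was chosen on this contrast, its rank among the intervals is a description.

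**Figure D5:**
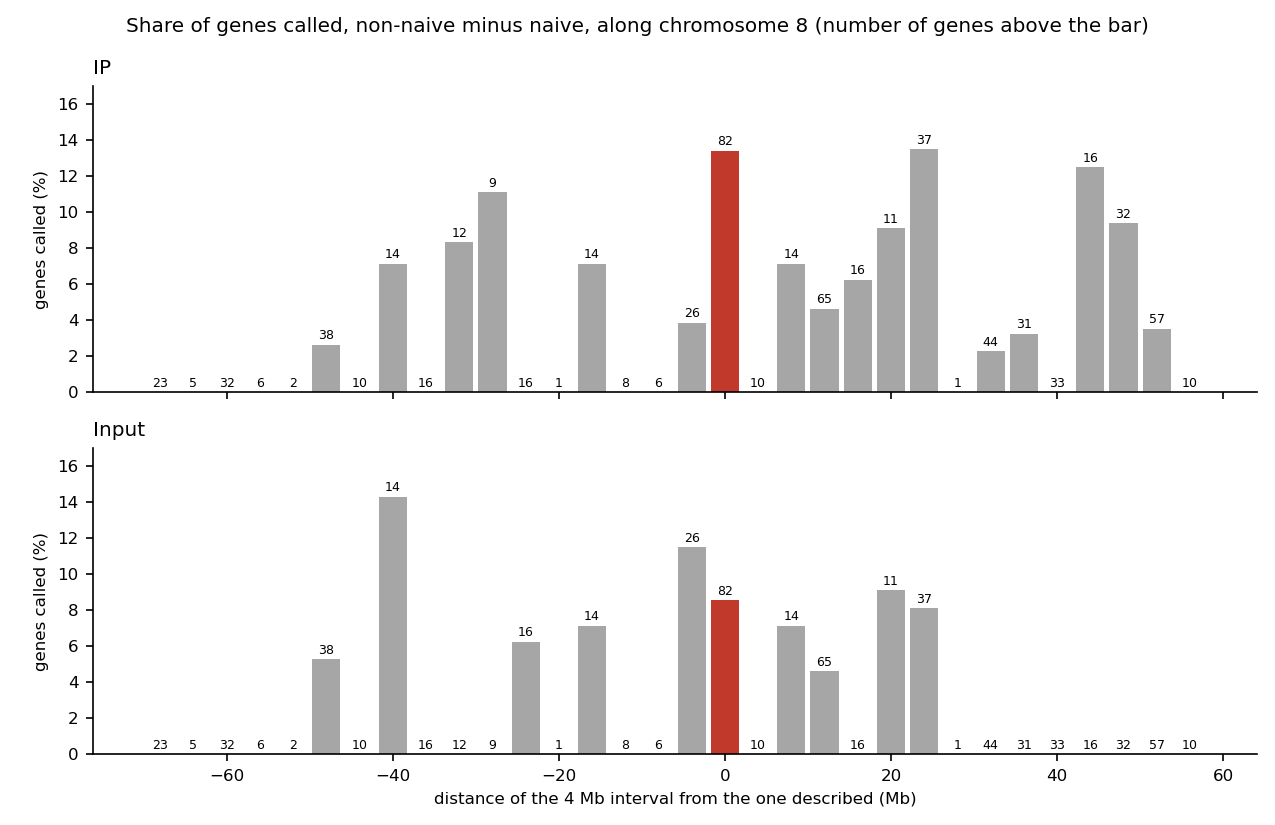
Share of protein-coding genes of at least 1 CPM called between non-naive and naive mice (vertical axis, percent) in each 4 Mb interval of chromosome 8, by its distance in Mb from the stretch described (horizontal axis, stretch in red), with the number of genes above each bar. The stretch has 13.4% of 82 genes called in the IP and 8.54% in the input. The interval at a distance of 24 Mb has 13.5% of 37 genes called in the IP and 8.11% in the input. Several smaller intervals reach similar shares on fewer genes.

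Mice of the same treatment, sex and batch also differed from each other in these genes. After the means of each treatment by sex and the batch terms were removed from log2(CPM + 0.5), the IP and input levels of Ocel1 were correlated over 44 mice, with Pearson's r of 0.72 (permutation p 1e-05, the smallest that 100000 permutations can give, adjusted p 6e-05 over 6 relations) and Spearman's rho of 0.532 (permutation p 0.00014, adjusted 0.00042). Without the 2 mice farthest from the median, J08 and K20, r was 0.588. Within batches I, J, K and L it was 0.546, 0.739, 0.789 and 0.759. For Fam32a, r between IP and input was 0.597 (permutation p 9e-05, adjusted 0.00027) and rho was 0.563 (permutation p 0.00012, adjusted 0.00042), and r was 0.493 without the same mice. Within batch I, which holds no naive mouse, the Fam32a relation did not hold, with r of -0.311, against 0.781, 0.472 and 0.652 in batches J, K and L. For Upf1 the relation was not past its spread, with r of 0.172 (permutation p 0.26, adjusted 0.26) and rho of 0.175 (permutation p 0.251, adjusted 0.251), r of 0.181 without its 2 farthest mice, and r of -0.126, 0.291, 0.234 and 0.384 within the batches.

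Averaged over both fractions, Upf1 and Fam32a ran against each other, with r of -0.539 (permutation p 0.00015, adjusted 0.0003) and rho of -0.492 (permutation p 0.00078, adjusted 0.00156). That r was -0.516 without the 2 farthest mice and -0.353, -0.71, -0.381 and -0.591 within batches I, J, K and L. Upf1 and Ocel1 had r of -0.417 (permutation p 0.00484, adjusted 0.00581) and rho of -0.303 (permutation p 0.0468, adjusted 0.0561), with r of -0.355 without the 2 farthest mice and -0.295, -0.429, -0.489 and -0.469 within the batches. Ocel1 and Fam32a had r of 0.545 (permutation p 0.00022, adjusted 0.00033) and rho of 0.349 (permutation p 0.021, adjusted 0.0315), but r was 0.285 without J08 and K20, so the relation rests in large part on those mice. Within batch I it was -0.0434, against 0.609, 0.692 and 0.653 in the other 3 batches.

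Over all 82 members, the median correlation between IP and input of the same mouse was 0.322, from -0.208 to 0.720, beside a median of 0.246 over the 13188 protein-coding genes. Ocel1 had the highest of the members, and Mau2 followed at 0.658 and Rab3a at 0.639. Both libraries of a mouse share the animal and its dissection, so these values describe the mice and are not replicates of a treatment.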

How the data were processed

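RNA was measured in the nucleus accumbens of 49 mice, in an IP and an input fraction. Per the labels' protocols, libraries were made with the SMART-Seq PLUS kit. The values used were raw gene counts, deposited by the authors in 1 table. The submitters' processing notes name GRCm38 and the tools STAR 2.7.10b, Trimmomatic 0.39 and FastQC 0.11.9. The counting program, annotation and use of strand are not given in the sources used here. By gene ID, 55230 of 55471 features matched GENCODE M21. Exons of 37 of the 82 members overlap another gene's, so their counts are uncertain in that part.

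The members and gene lists were chosen with earlier results of these data known. Tests on the counts used edgeR 4.0.16 in R 4.3.3, by quasi-likelihood (TMM scaling, filterByExpr with a minimum count of 10 and total of 15, robust dispersion), fitted over all genes of a fraction with batch terms beside means of the treatment by sex groups, and adjusted by the Benjamini-Hochberg method over all genes. The fits held batches I to L, with 16 dependent, 13 non-dependent and 15 naive IP libraries and 16, 15 and 16 for the input. In batches C and G there is 1 dependent mouse each, so they carry no treatment contrast within a batch. A called gene has an adjusted p at or under 0.05, and all 82 members were tested in every comparison. The non-naive value is the mean of dependent and non-dependent mice.

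IP and input were compared over 46 mice with the mouse as a block, the dispersion being taken from the top 5% of genes by abundance. The labels pair the libraries by mouse. After treatment by sex means and batch terms were removed, residuals of the 2 fractions of a mouse correlated over 13188 genes with a median of 0.266, while pairs of different mice within a batch had a median of -0.027. The value passed 0.1 in 43 of 44 mice, and in 34 the own input gave the highest value.

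Group levels are CPM over all libraries of a group, with no batch adjustment. Standard errors come from the F statistic. On simulated data the IP fit for non-naive minus naive recovered 56.7% of genes changed by 0.5 and 100% of those changed by 1 on the log2 scale, over 18635 genes, and the input fit 53.5% and 99% over 19127. False calls made up 5.4% of the calls in the IP fit and 1.9% in the input fit. Every simulated gene had the same dispersion, so these rates need not hold for members with a wider spread. Alternatives were DESeq2 1.42.0, RLE scaling, no count filter, no batch term, fewer batches, other member limits and, chosen after seeing the data, leaving out naive mice J08 and K20. The genes named are up to 8 higher and 8 lower members called in both fractions, those called between dependent and non-dependent mice, the 4 highest and 4 lowest in IP over input, the first and threshold genes, and 2 to 4 members of each role list. The remaining called members and Nr2f6 were named after their values were seen. Some members that this choice would name are not reported here. Promoters are from RefSeq, GRCm38.p6.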

Additional observations from a re-analysis of the deposited data

How the results depend on the processing

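The setting with no batch term also brings in the dependent mice of batches C and G, so that the model and the mice change together. Between non-naive and naive mice, 11 members were called in the IP and 7 in the input. With other settings, the IP count was 16 by DESeq2, 12 with RLE scaling, 12 with no count filter, 11 with no batch term and 11 in batches J, K and L. It fell to 6 in batches J and K alone and to 7 without naive mice J08 and K20. The input count was 9 by DESeq2, 7 with RLE scaling, 6 with no count filter and 5 in batches J, K and L. It was 4 with no batch term, 1 in batches J and K alone, and 4 without J08 and K20. With a minimum of 5 CPM, 10 of 73 members were called in the IP and 7 in the input, and from 68 to 76 Mb 12 of 106 genes in the IP and 10 in the input. Between dependent and non-dependent mice in the IP, the count of 1 became 2 by DESeq2, 0 with no batch term and 0 in batches J and K. Over all genes, the 433 IP calls between non-naive and naive mice became 1008 by DESeq2, 942 with no count filter, 729 with no batch term and 158 in batches J and K. The 166 input calls became 610, 247, 364 and 22 with the same settings, 109 without J08 and K20. The 314 dependent minus non-dependent IP calls became 936, 684, 92 and 0, and the 79 input calls became 402, 119, 28 and 0. The 10 female minus male IP calls became 401 by DESeq2, 96 with no count filter and 6 in batches J and K, and the 11 input calls 246, 25 and 7. Without the replicate block, 71 members passed between IP and input, as with it, and the 15 genes of the fraction by naive status test became 0, with 0 members either way. For single called members, 130 values under other settings stayed past the threshold with the same direction and 33 kept the direction but not the call. The 130 include the 4 highest and 4 lowest members in IP over input, each of which kept its call in 4 of 4 settings. All 33 losses fell on the treatment contrasts. There Ssbp4 in the IP and Zfp617 in the input kept the call in 2 of 7 settings and Cers1 in the input in 3 of 7. Fam32a kept it in 7 of 7 in each fraction. No direction turned. The smaller sets held fewer mice, and the cause of these shifts was not tested.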
